A study of Brassica rapa and Brassica oleracea and Brassica napus with 3 samples.

Results

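Genes with DNA methylation in the upstream flank, but nearly none in the gene body and the downstream flank, were collected from young leaves of *Brassica oleracea* and *Brassica napus*. A gene was a member when its mean methylation level was at least 15% upstream, under 2% in the body and under 5% downstream, with at least 2 of the 4 bins of each region holding a value. Of 155293 genes on numbered chromosomes, 142041 could be classified in this way and 10244 of these (7.21%) were members. The members were chosen by these measured levels, so their high upstream and low body and downstream levels are a description and not a finding.

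The leaves came from hydroponically grown seedlings that the labels give as 2 weeks or 14 d old, with 1 bisulfite sequencing library for each of *B. oleracea* (JZS, Co genome) and *B. napus* (zs11, with an An and a Cn subgenome). Bisulfite converts unmethylated cytosines but leaves methylated ones, and each deposited value is the methylated fraction of cytosines in 1 of 12 bins of a gene, printed here in percent. With no replicates, no difference between (sub)genomes could be tested, and species, library, read depth and annotation cannot be told apart between Co and *B. napus*. Only An and Cn share a library. The number of reads behind a bin is unknown. In whole leaves, methylation of more sites per cell and methylation in more of the cells cannot be told apart.

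In plants, cytosines are methylated in the CG, CHG and CHH contexts, where H is any base but G. Dense methylation in all contexts is known from transposons and repeats, whereas methylation of CG alone is found in the bodies of many transcribed genes. Flanks often hold repeats, and the stretch beside the gene start is usually poor in methylation. The deposited levels are not separated by context.

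Bins 1 to 4 run through the upstream flank towards the gene start, bins 5 to 8 through the body and bins 9 to 12 through the downstream flank. The flanks measure 2 kb in the profile legend of the study, which would make a bin 500 bases if the bins are equal, but no bin width is stated for these values. The direction was checked on annotated 5′ untranslated regions, whose upstream bins equalled those of their transcript in 100% of the rows compared (7163 in An and 7451 in Cn).

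Short sequences near the start of some genes come from the study's list of motif matches in promoters. By the study's definition, promoters also reach past the gene start. The first 1998 rows per species were held. These rows covered 33 Co members with 109 matches and 40 An members with 112. For the first members in list order, 1 match each is printed here, with CG dinucleotides (a symmetrical cytosine context) in capitals, as the list prints it and with the position in the genome of that species. The strand and the version of the genome are not given there. The motifs come from a database of *Arabidopsis* factors, and a match is a string of letters and not an observed binding event.
BolC01g000190.2J, VRN1 motif (ABI3VP1), C01:181961-181970: tttttttttt
BolC01g000460.2J, GBF5 motif (bZIP), C01:290635-290649: agaacaCGtggaaag
BolC01g001100.2J, HDG1 motif (Homeobox), C01:637851-637862: atattaattatt
BnaA01G0002200ZS, FRS9 motif, A01:246388-246399: agagagagagag
BnaA01G0002400ZS, TRP2 motif (MYB-related), A01:282522-282529: taaaccct
BnaA01G0002600ZS, PHV motif (HB), A01:290559-290568: ataatcatta

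Of these 6 strings, the GBF5 match of BolC01g000460.2J holds CG, and the others have no cytosine in that context. bZIP factors such as GBF5 are known to bind an ACGT core, which contains CG. The upstream level was 18.3% for BolC01g000460.2J. It was 17.6% for BolC01g000190.2J and 18.7% for BolC01g001100.2J, and the An genes were at 29.3% (BnaA01G0002200ZS), 35.1% (BnaA01G0002400ZS) and 20.7% (BnaA01G0002600ZS). The Co gene with CG in its match thus had an upstream level between those of the Co genes without. The positions of the matches relative to the bins are not known, and a match may lie outside the upstream flank.

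Across all member matches held, CG occurred in 22 of 109 in Co (20.2%) and 12 of 112 in An (10.7%). In the matches of all classified genes of the same rows the shares were 14.8% and 13.7%. The member share thus lay above that of all classified genes, members included, in Co and below it in An. Matches overlap each other and several belong to 1 gene, and the rows cover only the start of chromosomes A01 and C01, so no comparison was tested.

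Members made up 5.08% of classified genes in Co (2716 of 53433, 95% Wilson interval 4.90% to 5.27%). In *B. napus* they made up 7.88% of An (3112 of 39512) and 8.99% of Cn (4416 of 49096). These intervals, like all others given here, cover counting over genes only and not variation between plants or libraries. By chromosome, the share ran from 4.68% (C07) to 5.50% (C03) in Co, from 7.13% (A03) to 8.85% (A06) in An and from 8.43% (C04) to 10.0% (C05) in Cn. The SD over chromosomes was 0.287 (Co), 0.478 (An) and 0.504 (Cn) percentage points. Every An and Cn chromosome lay above every Co chromosome, whereas An and Cn overlapped.

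**Figure D1:**
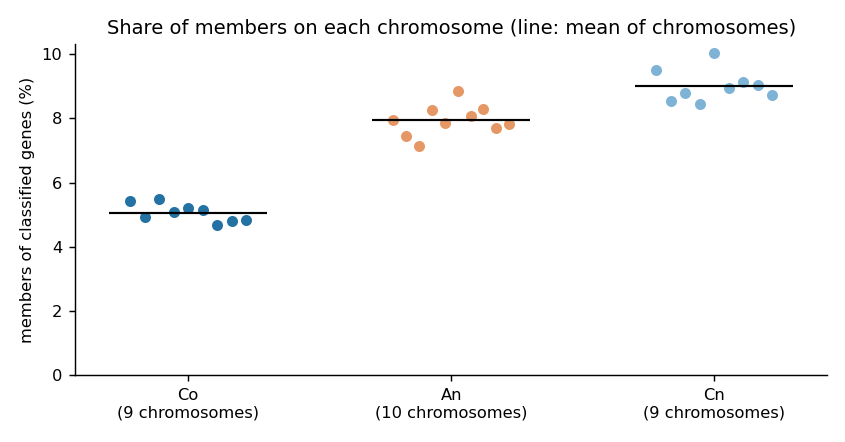
Share of classified genes that were members (y axis, %) on each chromosome (points) of Co, An and Cn (x axis), with the mean over chromosomes as a line. The Co points end at 5.50% and the An and Cn points begin at 7.13%.

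The limits on the regions removed different shares in each (sub)genome. An upstream level of at least 15% was found in 37.6% (Co), 21.5% (An) and 33.2% (Cn) of classified genes, so that methylated upstream flanks were more frequent in both C genomes than in An. Among these genes, a body under 2% was found in 28.1% in Co, against 60.3% in An and 53.0% in Cn. Of the genes left, the downstream flank was under 5% in 48.2% (Co), 60.7% (An) and 51.1% (Cn). These shares were near those of all classified genes, 41.1%, 62.0% and 47.4%. Members were therefore 13.5%, 36.6% and 27.1% of the genes with a methylated upstream flank, in the same order. A body under 2% was also more frequent among all classified genes of *B. napus* (73.2% in An and 62.8% in Cn) than of Co (38.6%), and the part of this difference in the number of members was not tested.

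The same limits turned around, for genes with a methylated downstream flank only, selected 1731 genes in Co, 1805 in An and 2500 in Cn. These were 3.24%, 4.57% and 5.09% of classified genes. There were thus 1.57, 1.72 and 1.77 members per gene of the turned-around kind. Both flanks were methylated around an unmethylated body in 1324 (2.48%), 820 (2.08%) and 1992 (4.06%) genes. Methylation on the upstream side alone was the most frequent of the 3 arrangements in Co, An and Cn. Over all classified genes the median level was also higher upstream than downstream. It was 10.4% against 7.95% in Co, 4.04% against 2.08% in An and 8.86% against 5.84% in Cn. A higher number on the upstream side is thus not by itself a trait of members.

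Most members lay between 15% and 30% upstream. The upstream level had its median at 22.1% (Co), 21.2% (An) and 22.0% (Cn), and the highest levels were 67.8%, 63.2% and 64.7%. At least 30% was reached by 18.5% (Co), 12.8% (An) and 16.8% (Cn) of members. The median body level was 0.392%, 0.247% and 0.250%. Just inside and just outside the upstream limit stood pairs of genes that both round to 15%. In An, the member BnaA05G0060200ZS had 29.9%, 19.7%, 9.98% and 0.444% in bins 1 to 4, and the excluded BnaA03G0526500ZS had 22.6%, 20.4%, 10.4% and 6.52%. Both descend towards the gene start. In Cn, the member BnaC03G0693200ZS also descends, with 30.3%, 21.2%, 8.47% and 0%, whereas the excluded BnaC07G0529900ZS had 2.23%, 20.3%, 31.6% and 5.82% and was highest in bin 3. In Co, the member BolC04g064650.2J had 18.8%, 20.6%, 16.0% and 4.53%, and the excluded BolC08g034570.2J had 28.2%, 28.9%, 2.64% and 0.286%. Both genes of the Co pair were highest in bin 2 and lowest in bin 4, whereas the genes of the Cn pair differed in their highest bin. Each is a single pair and does not stand for its (sub)genome.

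Along the flank, methylation was spread over bins 1 to 3 and fell in bin 4, the bin beside the gene start. The mean level of members in bins 1, 2, 3 and 4 was 26.5%, 29.1%, 26.6% and 13.5% in Co. It was 24.2%, 27.7%, 25.7% and 13.5% in An and 25.8%, 28.6%, 26.5% and 13.9% in Cn. The SD over members was 11.8 to 13.6 percentage points in these bins. The mean of bin 4 differed by less than 1 percentage point between Co, An and Cn. Bin 4 was below bin 3 in 89.2% (Co), 87.7% (An) and 86.8% (Cn) of members, and the median fall was 12.4, 11.6 and 12 percentage points. A fall beside the start was not particular to members. Over all classified genes the mean went from 12.9% in bin 3 to 9.67% in bin 4 in Co. It went from 8.43% to 5.64% in An and from 11.6% to 7.98% in Cn. A second fall at the gene start itself is set by the body limit of the rule. The first body bin was at exactly 0 in 59.3% (Co), 52.5% (An) and 56.8% (Cn) of members. The rule does not name the order of the upstream bins. Bin 4 adjoins the body, however, so the body limit may also favour a low bin 4, and its part in the fall was not tested.

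**Figure D2:**
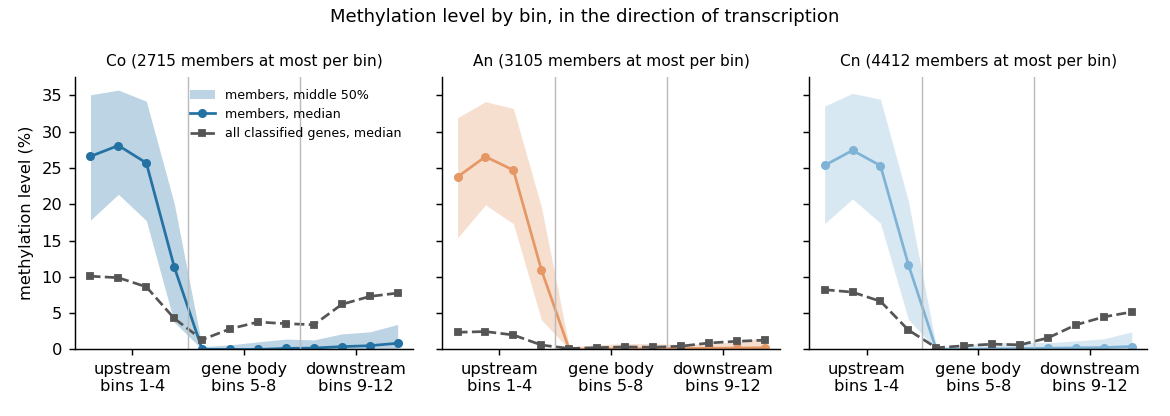
Median methylation level (y axis, %) in the 12 bins (x axis, in the direction of transcription) of members (filled line, shading for the middle 50%) and of all classified genes (dashed line) of Co, An and Cn. The members' median lies between 23.8% and 28.1% in bins 1 to 3, between 10.99% and 11.68% in bin 4 and near 0 from the start onwards.

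A bin was called methylated at 15% or more. Shares of called bins are not given for all classified genes. Bin 4 was called in 38.3% of members in Co (95% Wilson interval 36.5% to 40.2%), 37.2% in An and 39.7% in Cn. Bin 1, at the far end, was called in 81.4% (Co), 75.7% (An) and 80.0% (Cn). In members with a value in all 4 upstream bins (2570, 2845 and 4181 genes), the called bin nearest to the start was most often bin 3, in 44.6% (Co), 45.1% (An) and 43.8% (Cn). It was bin 4 in 37.9%, 37.0% and 39.5%, and bin 2 in 16.7%, 16.3% and 15.6%. Methylation in the farthest bin alone was rare (22 members in Co, 45 in An, 42 in Cn). A mean of 15% from 1 bin needs a level of 60% there, so few called bins are also disfavoured by the rule.

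**Figure D3:**
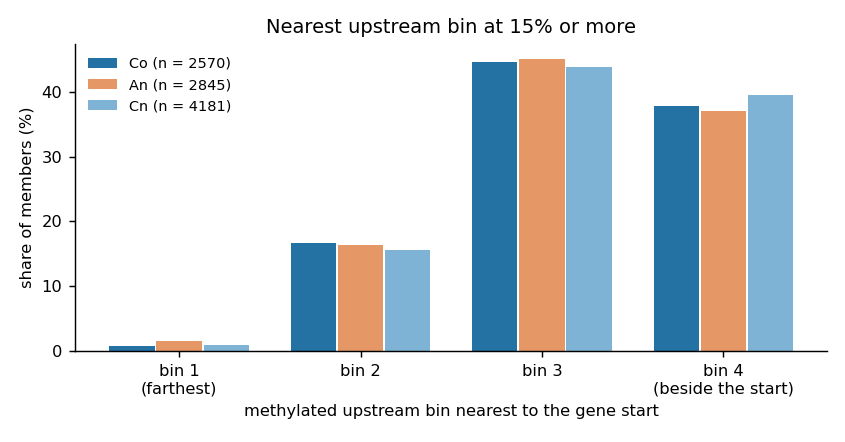
Share of members with values in all upstream bins (y axis, %) by the methylated bin nearest to the gene start (x axis, bin 1 farthest and bin 4 beside the start), in Co, An and Cn (bars). Bin 3 holds 43.8% to 45.1% and bin 4 holds 37.0% to 39.5% in each (sub)genome.

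The called bins formed 1 unbroken stretch in 96.6% (Co), 96.3% (An) and 95.3% (Cn) of these members. The most frequent pattern was bins 1 to 3 called and bin 4 not, in 36.0%, 34.5% and 35.3%. All 4 bins were called in 24.6%, 19.9% and 23.6%. The single highest bin was bin 3 in 34.0%, 33.7% and 33.6%, and bin 4 in 6.81%, 7.59% and 7.80%. The fall beside the gene had a counterpart on the other side, in genes chosen with the same body limit. In genes methylated downstream only, the flank bin nearest to the gene had a median of 11.9% (Co), 12% (An) and 11.6% (Cn), and was called in 38.7%, 39.7% and 38.5%.

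Among members with a value in all bins, those with the highest upstream levels are described by their bins. In Co, BolC08g027230.2J had 88.8%, 87.4%, 72.1% and 20.5% in bins 1 to 4 and then 0 in the first body bin. BolC06g008140.2J had 61.5%, 74.7%, 68.5% and 51.1% before a first body bin at 0. BolC06g021300.2J, with 9 coding segments, had 64.0%, 70.3%, 68.2% and 25%, followed by 0.299% in the first body bin. These genes differ in the bin beside the start. Their step at the start is set by the rule and is not a finding.

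In An, BnaA07G0074900ZS had 59.8%, 80.0%, 91.4% and 9.27%, so that its step lay between bins 3 and 4. BnaA10G0181300ZS, with 19 exons, had 37.4%, 66.9%, 73.6% and 54.8% and stepped down at the start. In Cn, BnaC05G0004400ZS had 70.8%, 78.7%, 67.2% and 25.5%. BnaC05G0358600ZS had 65.9%, 56.0%, 58.1% and 56.1%, nearly level up to the start, and BnaC01G0203000ZS had 34.1%, 62.5%, 61.7% and 61.5%, nearly level from bin 2 onwards. No functions are given for these genes, because none of the identifiers is named in the annotation used here.

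In a small number of members, neighbouring upstream bins held the same value to the last decimal. This was seen in 27 Co (0.994%), 45 An (1.45%) and 60 Cn (1.36%) members, against 1.22%, 2.00% and 1.23% of all genes with a methylated upstream flank. How such values arose was not tested.

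Annotated 5′ untranslated regions were more frequent among members than among all classified genes of *B. napus*, with 23.2% against 18.9% in An and 19.97% against 15.6% in Cn. In genes with all regions unmethylated (under 5% upstream, 2% in the body and 5% downstream) the shares were 18.7% and 16.6%, and in genes with both flanks methylated around an unmethylated body they were 25.5% and 19.4%. The higher share was thus also found where both flanks were methylated. Of the untranslated regions with a level, 85.5% in An and 86.9% in Cn members were at 0. The shares were alike over all classified genes (84.9% and 84.8%) and in unmethylated genes (85.9% and 87.3%). In members, the median of bin 4 was 14.1% with and 10.2% without an annotated untranslated region in An, and 14.7% and 11.03% in Cn. Among members, bin 4 thus stood higher beside starts with an annotated untranslated region. This was not particular to members. With both flanks methylated, bin 4 was at 14.3% with and 10.0% without in An, and 13.9% and 10.7% in Cn. In members, bin 3 was higher too (26.9% against 24.3% in An, 27.2% against 24.7% in Cn). Bin 1 was lower (23.3% against 23.9%, 24.6% against 25.4%). Over all classified genes the median of bin 4 was 0.643% with and 0.596% without in An. In Cn it was 2.07% with and 2.79% without, where the order was the opposite. In Co no untranslated regions were listed, and exon numbers there count coding segments. In *B. napus* annotated exons were counted, so the numbers of the species are not directly comparable. The mean number of exons was 4.30 in members against 5.08 in all classified genes in Co, 5.43 against 5.01 in An and 4.83 against 4.67 in Cn, so that only in Co was the mean lower in members. Single-exon genes were 18.4% of Co members and 12.98% of all classified Co genes. They were 19.2% of unmethylated Co genes, 19.6% of those methylated downstream only and 19.1% of those methylated on both flanks, with mean exon numbers of 4.37, 4.08 and 4.13. Fewer exons were thus found in Co in each of these classes with a body under 2%, and not in members alone.

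Adjacent members were counted along the chromosome, taking the order of the identifiers as the order of the genes. At least 1 of the adjacent genes was also a member for 12.3% of members in Co, against 9.93% of all genes. The share was 18.7% against 15.1% in An and 19.8% against 17.3% in Cn. Stretches of a single member made up 93.8%, 90.5% and 89.9% of all stretches. With members at 5.08%, 7.88% and 8.99% of classified genes, mostly single stretches follow from their low number and are no sign of isolation. The longest stretch counted 3 (Co), 4 (An) and 6 (Cn) members. The Cn stretch ran from BnaC04G0288000ZS to BnaC04G0288500ZS on C04, with upstream levels of 24.4%, 22.9%, 27.1%, 20.6%, 18.9% and 18.5%. Its exon numbers were 3, 4, 1, 22, 3 and 2. In BnaC04G0288500ZS, bins 1 to 4 read 0%, 17.7%, 29.5% and 26.9%, and in BnaC04G0288000ZS they read 37.7%, 27.9%, 23.3% and 8.56%. The 6 genes thus share the class but not the bin in which methylation is highest.

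In Co, where coding segments are listed by coordinate, the direction of transcription of neighbours could be inferred from genes with several of them. The gene on the upstream side was in divergent arrangement, start to start, for 54.6% of members, against 49.7% of all genes. Where the upstream neighbour was transcribed in the same direction, so that its downstream flank points at the member, that flank had a median of 13.6% (all genes 9.91%). Beside unmethylated genes it was 1.21%. In divergent pairs the upstream flank of the neighbour had a median of 11.2% (all genes 11.01%). On the other side, a converging neighbour had a downstream median of 2.21%, below the 6.82% of all genes. Flanks of neighbours can cover the same bases as those of the member, so these values are not independent of the rule.

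Homoeologs were taken from the part of the study's list of homoeologous tetrads that was held, 1998 of 14748 tetrads, of which 1385 have their An gene on A01 and 609 on A02. The Co, An and Cn gene of each tetrad were used. Members among these genes numbered 157 in Co, 190 in An and 221 in Cn. All shares given for tetrads describe this part of the list, and none was tested.

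Between *B. oleracea* and the subgenome of the same lineage, membership was often shared. For Co members, the Cn homoeolog was also a member in 71 of 153 pairs (46.4%, 95% Wilson interval 38.7% to 54.3%), against 11.3% of all pairs. In the other direction, the share was 32.3% from Cn to Co (71 of 220, 26.4% to 38.7%), against 7.87%. Both intervals lay above the share in all pairs.

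Between the subgenomes of *B. napus*, the shares were lower. The Cn homoeolog of An members was a member in 39 of 186 pairs (21.0%, 15.7% to 27.4%), against 11.2% of all pairs. The An homoeolog of Cn members was one in 39 of 216 (18.1%, 13.5% to 23.7%), against 9.64%. With both directions pooled, this share was 22.6% in the tetrads of A01 (all pairs 10.2%) but 12.5% in those of A02 (all pairs 10.9%). The An and Cn values come from 1 library, whereas pairs of Co and Cn span 2 libraries. The same Cn genes enter both kinds of pair, so the kinds are not independent of each other.

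**Figure D4:**
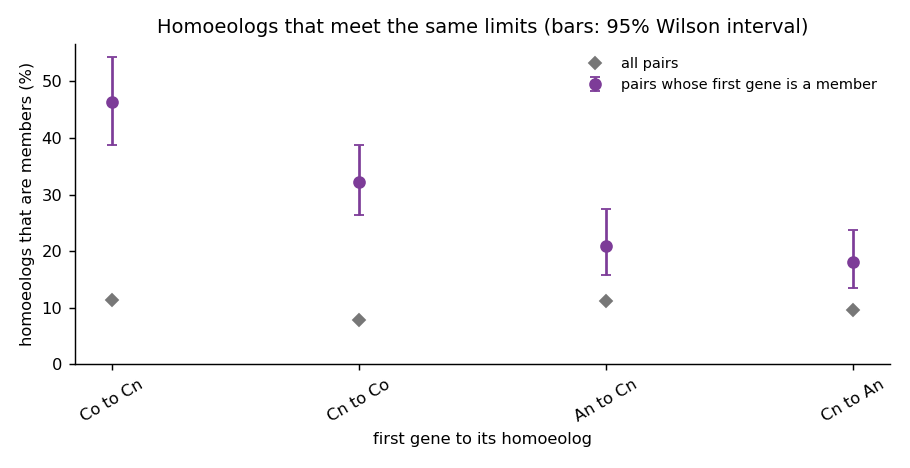
Share of homoeologs that were members (y axis, %) for pairs whose first gene was a member (circles, bars for the 95% Wilson interval over genes) and for all pairs (diamonds), in each direction between (sub)genomes (x axis). The circles fall from 46.4% (Co to Cn) to 18.1% (Cn to An), while the diamonds stay between 7.87% and 11.3%.

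Homoeologs that were not members were found in several states. Of the 153 Cn homoeologs of Co members, 28 (18.3%) had a methylated upstream flank but exceeded another limit, 31 (20.3%) had 5% to 15% upstream and 23 (15.03%) were under 5%. Over all pairs these states held 16.2%, 26.7% and 45.8%, so that beside Co members mainly the share under 5% was lower. Of the 220 Co homoeologs of Cn members, these states held 64 (29.1%), 57 (25.9%) and 28 genes (12.7%), against 19.7%, 27.9% and 44.5% of all pairs. A body of 2% or more was found in 46 of the 64, and in 250 of the 383 such genes over all pairs. In all, the upstream flank reached 15% in 61.4% of Co homoeologs of Cn members, against 27.6% of all pairs. For the Cn homoeologs of Co members this was 64.7% (all pairs 27.5%).

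Of the 216 An homoeologs of Cn members, 27.8% reached 15% upstream (all pairs 18.4%) and 92 (42.6%, all pairs 56.4%) were under 5%. Of the 186 Cn homoeologs of An members, 41.9% reached it (27.5%) and 59 (31.7%, all pairs 45.7%) were under 5%. The An homoeologs of Cn members had a median upstream level of 6.80% (all pairs 3.34%). For the Co homoeologs of Cn members it was 17.7% (all pairs 6.49%), so that Co stood above An over all pairs too. For the Cn homoeologs the median was 18.4% beside Co members (all pairs 6.48%) and 12.3% beside An members (all pairs 6.49%).

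Where both genes of a pair were members, their upstream levels differed by a median of 5.22 percentage points between Co and Cn and 4.26 between An and Cn. Both genes had passed the 15% limit, so the rule itself favours small differences. The lower and upper quartiles of all members were 18.2% and 27.7% (Co), 17.7% and 26.2% (An) and 18.1% and 27.5% (Cn). Unrelated members were not compared, so these differences do not show that homoeologs are alike in level. The highest upstream bin was the same in 33 of 64 pairs of Co and Cn with values in all upstream bins, and in 8 of 37 pairs of An and Cn. As single genes, members had their highest bin in bin 3 in 33.6% to 34.0%, and bins 1 and 2 were close behind.

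The Co, An and Cn genes could all be classified in 1915 tetrads, and 432 of these (22.6%) held at least 1 member among them. Of the 432, 328 held exactly 1 member, 89 held 2 and 15 held 3. The single member was the An gene in 135 tetrads, the Cn gene in 122 and the Co gene in 71. Among tetrads with 2 members, Co with Cn occurred 54 times, An with Cn 24 times and Co with An 11 times. Of the classified genes in the tetrads held, 7.92% (Co), 9.69% (An) and 11.3% (Cn) were members. With shares this low, mostly single members follow from their low number and are no sign of divergence between homoeologs. Co with Cn was the most frequent pair.

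In 5 of the 15 tetrads with members throughout, the first in list order, the bins can be read gene by gene. In the tetrad of BnaA01G0303100ZS, bin 2 was highest in each gene, at 36.2% (Co), 29.6% (An) and 28.4% (Cn). Bin 4 was 9.14% (Co), 17.2% (An) and 10.2% (Cn). In the tetrad of BnaA01G0292600ZS, the An gene had 22.6%, 30.8%, 50.8% and 24.7% in bins 1 to 4 and the Co gene 22.2%, 24.0%, 32.0% and 20.7%, both highest in bin 3. The Cn gene stayed between 20.5% and 21.7% in bins 1 to 3 and had 10.7% in bin 4.

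In the tetrad of BnaA01G0181200ZS, the Co gene had 13.5%, 34.7%, 20.8% and 0.585% and the Cn gene had 25%, 32.4%, 12.4% and 0.356%, so that methylation nearly ended before bin 4 in both. The An gene, with 30.2% in bins 1 and 2 (the same value to the last decimal), kept 7.43% in bin 4. In the tetrad of BnaA01G0235400ZS, the An gene was highest in bin 1 (41.2%), whereas the Co and Cn genes were highest in bin 3 (25.2% and 33.3%). In the tetrad of BnaA01G0327800ZS, the Co gene had 12.5%, 22.8%, 21.3% and 3.54% and the An gene 16.6%, 22.1%, 19.5% and 4.25%. The Cn gene rose to 44.9% in bin 3. Exon numbers (coding segments in Co) were the same within each of these tetrads.

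**Figure D5:**
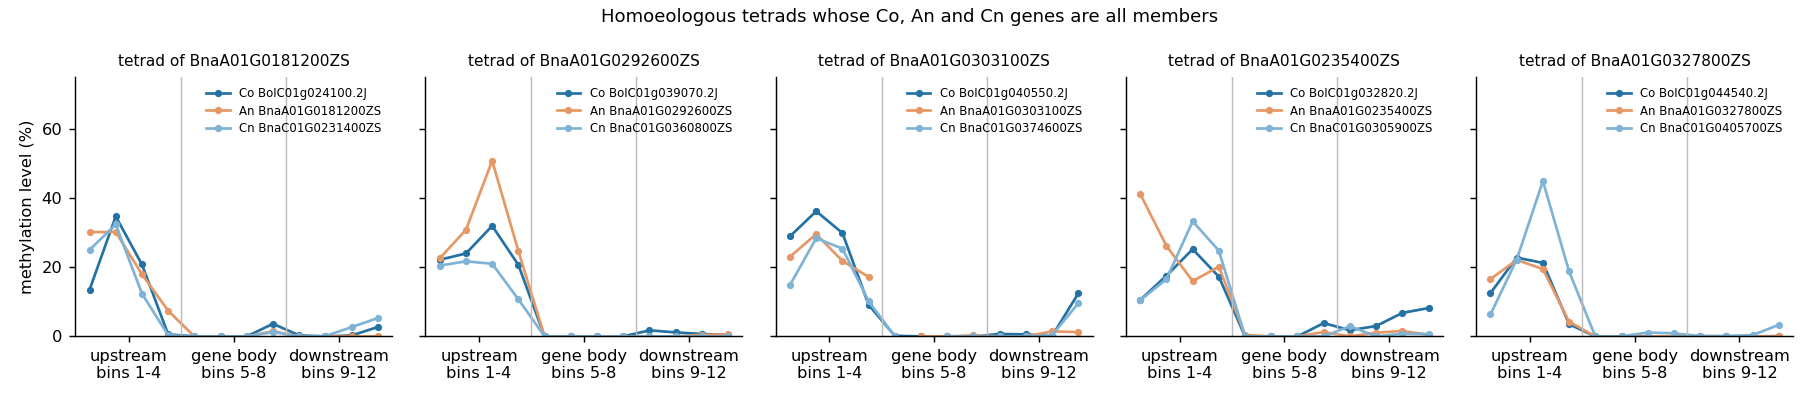
Methylation level (y axis, %) in the 12 bins (x axis) of the Co, An and Cn genes (lines) of the first 5 tetrads in which each of these genes was a member. The highest point is bin 3 of the An gene BnaA01G0292600ZS, at 50.8%, and each line drops to near 0 at the gene start.

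In some tetrads 1 member stood beside homoeologs with little methylation upstream. The other genes were under 5% upstream in 15 of the 71 tetrads with a Co member alone, 39 of 135 with an An member alone and 19 of 122 with a Cn member alone. The An gene BnaA01G0132400ZS had 50%, 54.4% and 35.8% in bins 1, 2 and 4 (bin 3 had no value). Its Co and Cn homoeologs had upstream means of 0.189% and 0.105%, and the Cn gene, BnaC01G0169300ZS, had 35.2% downstream instead. The Cn gene BnaC01G0236200ZS had 39.0%, 42.3%, 43.1% and 22.4%, against means of 0% in Co and 3.16% in An. These Co, An and Cn genes each have 14 exons (coding segments in Co).

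The Co gene BolC01g009050.2J had 51.2%, 38.7%, 36.3% and 21.0% in bins 1 to 4. Its homoeologs had upstream means of 3.04% in An and 3.90% in Cn. The An gene was highest in bin 3, at 6.35%, and the Cn gene had 10.7% in bin 1 and 0% in bins 3 and 4. Whether the flanks of such homoeologs differ in sequence was not analysed here.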

How the data were processed

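BS-seq libraries of young leaves were analysed, 1 each for *B. oleracea* and *B. napus*, assigned by their labels. Results that need a further library are not reported here. The authors filtered reads with Fastp, mapped them with BatMeth2 and deposited methylated fractions (0 to 1) for 12 bins of each annotated gene. Normalization, depth, cytosine context and bin width are not given in the sources used here. Mapping was to the ZS11 genome by the methods, yet rows carry each species' own identifiers. The label protocols describe formaldehyde fixation (*B. oleracea*) and RNA extraction (*B. napus*), whereas the methods describe bisulfite-treated genomic DNA. The members and the lists were chosen with earlier results of these data known.

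Fractions of gene rows were multiplied to percent and averaged over bins with a value, and the limits of the report were applied. Genes on unplaced scaffolds (3153 in *B. napus*, 620 in *B. oleracea*) were left out. None of the former could be classified, and none of the 144 classified *B. oleracea* genes met the limits. Adjacent genes followed identifier order. Homoeologs came from the study's tetrad list and sequences from its list of motif matches, both held in part. Genes named are the 3 with the highest upstream level and all bins valued, those at the limit, the first 5 tetrads with every gene used a member, single members beside homoeologs under 5%, the longest stretches and the first genes in the motif list. From each of these sets only a part is described. Intervals are 95% Wilson intervals. The code that applies the limits was tested on simulated data. Alternatives were other limits, bin rules, scaling, transcript rows and tetrad subsets. Calculations used Python 3.11.15, numpy 2.4.6, pandas 2.3.3, scipy 1.17.1 and matplotlib 3.10.9.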

Additional observations from a re-analysis of the deposited data

How the results depend on the processing

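Without replicates, coverage or read counts, no coverage minimum could be varied and no library left out. No paired analysis was possible because each species has 1 library and the result comes from no test. Values below are those that left the main interval, or changed a count by over 1.5 times, and the cause was not tested beyond the changed limit itself. Over all alternatives run, the share of homoeologs that were members stayed above that of all pairs in 28 of 28 pooled values, and the share of members beside a member above that of all genes in 39 of 39. Some of these differences were small, since in Co the shares were 6.76% against 6.35% at an upstream minimum of 20%, and 8.51% against 8.14% after scaling by the mean. The pooled share (both directions) of Co-Cn, 38.1%, stayed above that of An-Cn, 19.4%, in 14 of 14 alternatives. The order of the counts (Cn, An, Co) held in 11 of 12, the exception being a body maximum of 5%, where Co had 4324 and An 3676 members. Leaving out genes with repeated bin values, chosen after seeing the data, moved none of these values beyond the interval.

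An upstream minimum of 10% gave 5000 members in An. Bin 4 was then called in 30.8% in Co, 29.2% in An and 31.9% in Cn, bin 1 in 71.4%, 63.1% and 70.5%, and 17.1%, 26.2% and 27.7% had an adjacent member. Shared membership was 27.9% for An-Cn. A minimum of 20% gave 1717, 1785 and 2751 members (Co, An, Cn, as in all lists here), with bin 4 called in 47.2%, 47.5% and 48.8%, bin 1 in 89.7%, 84.3% and 87.9%, and an adjacent member in 6.76%, 12.4% and 12.7%. Shared membership was 27.6% for Co-Cn and 10.3% for An-Cn. A body maximum of 5% gave 43.3% for Co-Cn, and an adjacent member in 17.9%, 22.1% and 23.9%. A maximum of 1% gave bin 4 in 38.1% in Cn, 14.4% for An-Cn, and an adjacent member in 9.66%, 15.1% and 15.9%. A downstream maximum of 10% gave an adjacent member in 14.4%, 21.4% and 23.5%. A maximum of 2% gave 1732 members in Co, 29.2% for Co-Cn, and an adjacent member in 10.2%, 15.3% and 17.1%.

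Setting bins without a value to 0 gave bin 4 in 40.3% in Co and 39.1% in An, and bin 1 in 78.8%, 72.7% and 77.8%. The median of bins gave bin 4 in 40.3% in Co, bin 1 in 82.9%, 78.0% and 82.3%, and an adjacent member in 14.1% in Co and 21.3% in Cn. Scaling by the mean gave bin 4 in 33.2% in Co and 41.7% in An, and an adjacent member in 8.51% in Co and 21.1% in An. Calling a bin at 10% gave bin 4 in 55.0%, 53.5% and 56.0%, and bin 1 in 88.8%, 85.4% and 88.5%. Calling it at 30% gave bin 4 in 9.23%, 9.25% and 10.4%, and bin 1 in 38.2%, 30.2% and 35.1%. With A02 tetrads only, An-Cn was 12.5%, close to the 10.9% of all pairs there, against 22.6% and 10.2% with A01 tetrads only. With 2 genes on each side, a member was nearby in 22.9%, 32.5% and 33.2%.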
